A study of Mus musculus with 6 samples.

Results

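Immediate-early genes are transcribed within minutes of a growth signal without new protein synthesis, and 10 of them that belong to the EGR, NR4A and SRF branches of the response were examined. They are Egr1, Egr2, Egr3, Nr4a1, Nr4a2, Nr4a3, Ier2, Srf, Zfp36 and Btg2, taken by name from the 51826 genes in the tables, and each was found by its Ensembl number. All 10 passed the filter on low counts and were among the 14652 genes tested. Messenger RNA was sequenced from MEFs, the fibroblasts that grow out when a mouse embryo is put into culture. The groups were 3 cultures heterozygous for Lztr1 (Lztr1 +/-, here Het, numbered 11, 15 and 18) and 3 wild-type cultures (Lztr1 +/+, here WT, numbered 10, 12 and 16). Every culture had a C57BL/6 background and a labelled range of passage 2 to 5, and all were grown in DMEM with glutamine and trypsinized before RNA was harvested. The labels name no serum step, starvation or added stimulus, and the growth state of the cells at harvest is not stated. How the Lztr1 allele was made is not stated in the labels. They also do not say whether each culture is a different embryo, so the p-values reflect variation among these 6 cultures only, some of which may be technical.

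LZTR1 marks RAS-family GTPases for degradation as an adaptor of a cullin ligase, and RAS feeds the kinase ERK. ERK phosphorylates ternary complex factors such as ELK1, which sit with the serum response factor SRF on a DNA element called the CArG box and switch on immediate-early genes. A second set of SRF partners, the MRTFs, respond to actin and drive cytoskeletal genes. The EGR proteins are zinc-finger transcription factors, and the NR4A proteins are orphan nuclear receptors whose genes also respond to cAMP through CREB. IER2 is a nuclear protein made early after stimulation, ZFP36 (tristetraprolin) promotes decay of AU-rich transcripts, and BTG2 is an antiproliferative protein. In fibroblasts these genes are classic readouts of serum and of handling stress.

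Promoter sequences were searched for the elements of these inputs. RefSeq promoters (GRCm38.p6, the assembly also called mm10) were used for 7 of the 10 members. The 250 bases before each start were searched on both strands for exact matches. No promoter of Egr1, Egr3 or Ier2 was searched, so their absence from these matches says nothing on their elements. A CArG box was present before the starts of Srf (2 boxes), Zfp36 (1) and Egr2 (1 box before each of 4 of its 5 starts). At least 1 box was held by 1.47% of 32851 promoters. Of these Egr2 starts, 1 has the box CCTTTTTTGG and the others share a single box, CCATATATGG. The stretches that carry these boxes, except that of CCTTTTTTGG, are shown with the box in capitals. For Srf it is chr17:46556176-46556412 on the minus strand, cut where an annotated exon begins. For Zfp36 it is the box with 10 bases on each side (minus strand of chromosome 7, box from 28379277 to 28379286). All 250 bases searched before this Zfp36 start, the box included, lie in annotated exons of Zfp36 itself. For Egr2 it is chr10:67537619-67537868 on the plus strand.
Srf: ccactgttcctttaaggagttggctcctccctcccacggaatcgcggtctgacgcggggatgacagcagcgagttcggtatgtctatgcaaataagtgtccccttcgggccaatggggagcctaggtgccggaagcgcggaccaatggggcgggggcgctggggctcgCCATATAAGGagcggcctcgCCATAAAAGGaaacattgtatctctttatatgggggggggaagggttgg
Zfp36: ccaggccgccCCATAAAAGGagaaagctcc
Egr2: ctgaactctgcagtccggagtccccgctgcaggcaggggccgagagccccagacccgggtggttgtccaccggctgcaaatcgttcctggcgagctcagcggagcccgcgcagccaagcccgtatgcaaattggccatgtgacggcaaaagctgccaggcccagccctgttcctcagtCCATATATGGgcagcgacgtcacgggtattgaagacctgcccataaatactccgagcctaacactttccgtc

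The Srf boxes begin 82 and 62 bases before the start, the Zfp36 box 58 bases before it and the Egr2 box 72 bases before it. The cAMP-response core TGACG was present 4 times each before Nr4a1, Nr4a2 and Nr4a3. At least 1 such core was held by 17.8% of promoters, and the share of promoters with 4 was not determined. It was also present 2 times before Btg2, once before Srf and 2 times before each of 3 of the Egr2 starts, in windows that hold a CArG box as well, and not before Zfp36. It is in capitals, on either strand, in the stretches of Nr4a1 (chr15:101266596-101266845, plus strand), Nr4a3 (chr4:48045055-48045152, plus strand, cut at an annotated exon) and Btg2 (chr1:134079156-134079405, minus strand). In Btg2 the 2 cores overlap and read as 1 full element. The Nr4a3 stretch holds 3 of its 4 cores, and the other lies nearer the start.
Nr4a1: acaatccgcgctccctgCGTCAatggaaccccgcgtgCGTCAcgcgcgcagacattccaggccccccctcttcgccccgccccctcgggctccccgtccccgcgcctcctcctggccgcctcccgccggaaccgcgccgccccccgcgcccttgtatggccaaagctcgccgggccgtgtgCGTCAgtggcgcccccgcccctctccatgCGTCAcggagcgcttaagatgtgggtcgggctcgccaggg
Nr4a3: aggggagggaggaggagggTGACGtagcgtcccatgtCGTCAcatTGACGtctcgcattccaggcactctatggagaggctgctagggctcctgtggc
Btg2: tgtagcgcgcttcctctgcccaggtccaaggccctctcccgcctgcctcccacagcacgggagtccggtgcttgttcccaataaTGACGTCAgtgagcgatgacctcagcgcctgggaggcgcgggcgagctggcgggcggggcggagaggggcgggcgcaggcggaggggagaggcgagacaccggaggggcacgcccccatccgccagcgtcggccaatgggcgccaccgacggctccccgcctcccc

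No CArG box matched in these windows of the NR4A genes or Btg2, which says only that these letters are not in these windows. The EGR site GCGNGGGCG, held by 4.70% of promoters, matched once each before Srf, Zfp36, Nr4a1, Nr4a2 and Btg2. The NR4A site AAAGGTCA, held by 1.34% of promoters, matched before none of the 7 members. The ETS core GGAA matched before each of the 7, and was held by 93.4% of promoters. These matches are descriptions of sequence and not of binding.

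The libraries held between 11025286 and 21885101 expected counts, with Het 11 the deepest. Lztr1 averaged 44.9 ± 1.01 CPM in Het and 90.4 ± 6.21 CPM in WT cultures (SD, n = 3 each), 49.7% of the WT level, and each culture matched its genotype label. Fibroblast markers (10 of 10 tested, among them Col1a1 and Pdgfra) summed to 9129 to 10541 TPM in Het and 9546 to 11258 TPM in WT cultures. Estimates were lower in Het for 7 of these 10, beside 50.4% of all genes. By edgeR 4 were lower at an unadjusted p under 0.05 (Lum, Dcn, Pdgfrb and Col1a1), beside 6.65% of all genes, and none was called. Dcn, a matrix proteoglycan gene, had 84.9, 84.9 and 80.6 CPM in Het 11, 15 and 18 and 158.8, 152.8 and 79.4 CPM in WT 10, 12 and 16, so WT 16 lay at the Het level. By number the cultures fall into 10 to 12 and 15 to 18, called runs here. Cultures 11 and 16 were registered later than the other 4, and neither the runs nor this division is named as a batch in the labels. Y-linked genes were high in Het 15, Het 18 and WT 12, that is in 2 of 3 Het and 1 of 3 WT cultures.

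Levels are compared between genes in TPM, which is scaled for gene length. Egr1 was the most abundant member at a mean of 288.8 ± 46.9 TPM over the 6 cultures, and 2.03% of genes with any TPM had a higher mean. Ier2 followed at 136.5 TPM, with a range of 109.8 to 155.1 TPM. Btg2 (65.8 ± 9.07 TPM), Zfp36 (62.8 ± 9.93), Srf (51.6 ± 3.08) and Nr4a1 (41.0 ± 8.54) came next, and each overlapped its neighbour in this order over the cultures. Egr2 averaged 16.8 ± 3.19 TPM and Nr4a2 4.72 ± 0.649 TPM. Egr3 (2.37 ± 0.570 TPM) and Nr4a3 (1.37 ± 0.327 TPM) were the scarcest, and their ranges overlapped. Within the EGR and the NR4A family alike, 1 member was abundant and the other two were lower.

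**Figure D1:**
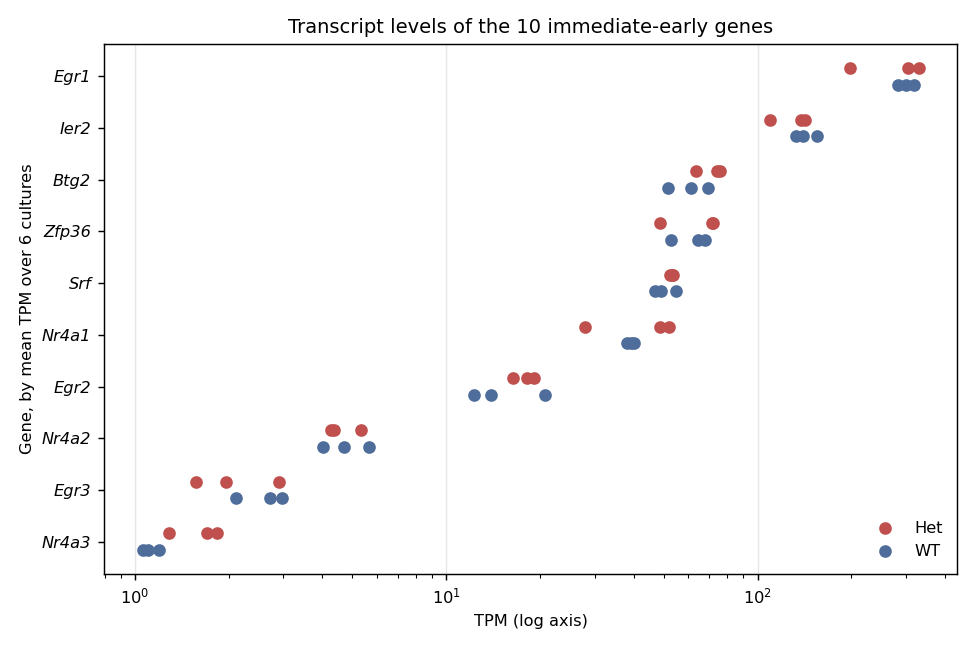
TPM of each gene in each of the 6 cultures on a log axis, with Het above WT in each row and genes ordered by mean. Egr1 lies between 198.8 and 329.2 TPM, while Nr4a3 lies between 1.06 and 1.84 TPM.

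None of the 10 genes passed the test between Het and WT cultures at an adjusted p under 0.05 by edgeR's quasi-likelihood test, in which 1 of 14652 genes (0.00683%), Lztr1, was called. DESeq2 called none of the 7 members to which it gave an adjusted p, against 1.44% of its genes. Egr3, Nr4a2 and Nr4a3 received no adjusted p from DESeq2, so it says nothing on these genes at this threshold. At an unadjusted p under 0.05 there was 1 member, Nr4a3, against 12.2% of all genes (5.56% higher and 6.65% lower in Het). Het and WT cultures did not overlap in CPM for 1 of the 10 members, again Nr4a3, against 17.7% of all genes, so both shares are near or under the background. Estimates were higher in Het for 6 of 10 and lower for 4, beside 49.6% higher and 50.4% lower over all genes, with a median log2 difference of 0.10 beside -0.002 over all genes. In bulk cultures fewer cells of a type and less RNA per cell cannot be told apart.

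**Figure D2:**
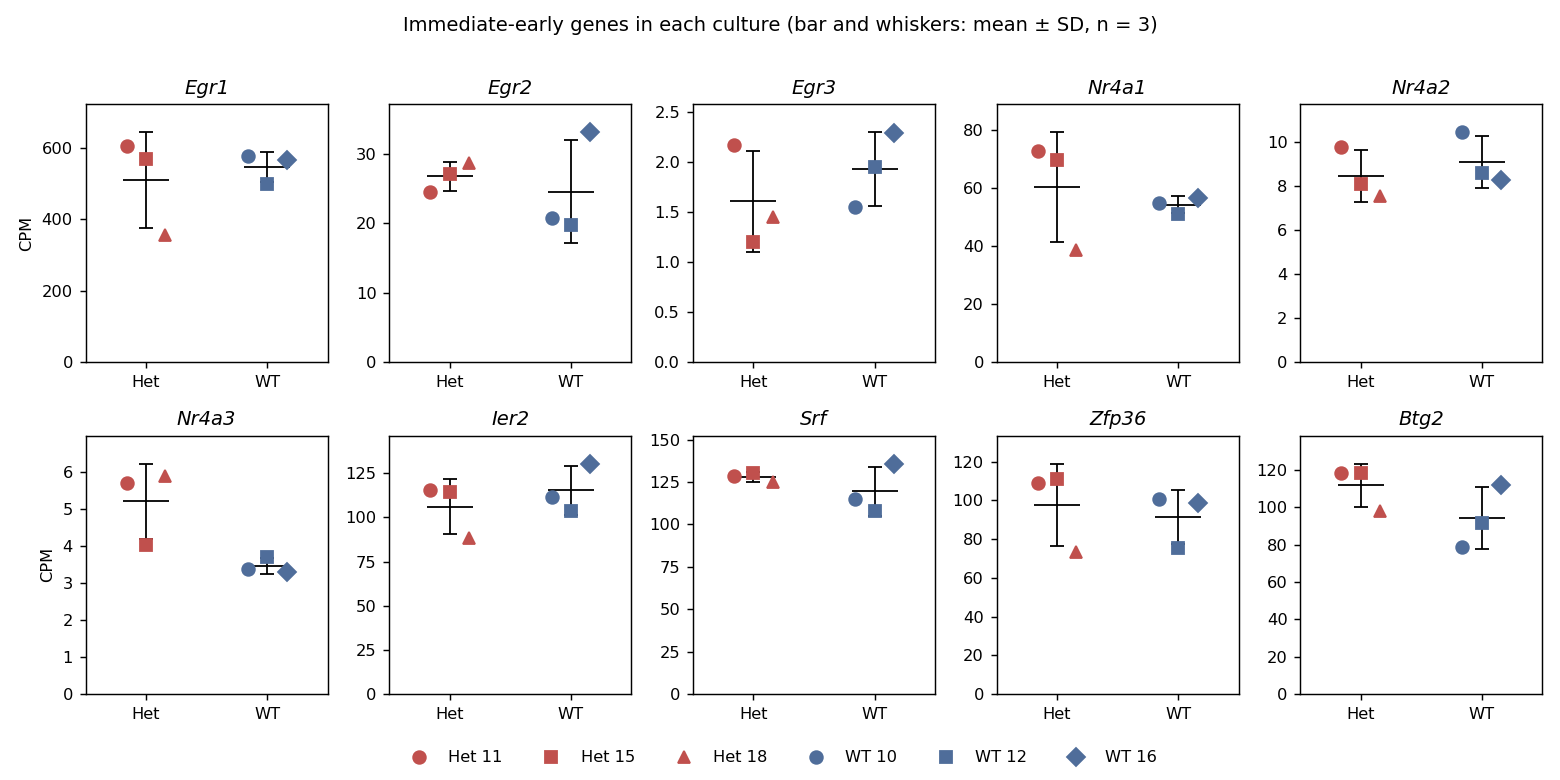
CPM of the 10 genes in each culture, with Het left of WT, a bar at the mean and whiskers of 1 SD (n = 3 each). Groups are apart for Nr4a3 alone. Het 18 is the lowest Het point for 7 of the 10 genes, beside 36.2% of all genes. These are Egr1, Nr4a1, Nr4a2, Ier2, Srf, Zfp36 and Btg2.

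Egr1, the best known serum-induced zinc-finger factor (ENSMUSG00000038418.7), was dominated by 1 culture. It measured 605, 569 and 357 CPM in Het 11, 15 and 18, against 576, 498 and 566 CPM in WT 10, 12 and 16. Het 18 lay under all other cultures, while Het 11 was the highest of the 6 and the groups overlapped. The means were 510.2 ± 134 CPM in Het and 547 ± 42.6 CPM in WT. The log2 difference was -0.10 (SE 0.18, 95% interval -0.51 to 0.31, edgeR adjusted p = 0.850). Without Het 18 it was 0.11, the other direction, with an adjusted p of 0.803. The Het mean was thus 93.4% of the WT mean, with an interval of 70.4% to 123.9%.

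Egr2, a zinc-finger factor known for myelination and hindbrain patterning (ENSMUSG00000037868.15, chromosome 10 from 67535475 to 67542188, plus strand), was dominated by a WT culture. Its CPM was 24.6, 27.1 and 28.6 in Het 11, 15 and 18, against 20.8, 19.8 and 33.1 in WT 10, 12 and 16. The Het cultures lay close together between WT 16, the highest of all, and the other WT cultures. The log2 difference was 0.12 (SE 0.19, interval -0.31 to 0.55, adjusted p = 0.814). Without WT 16 it was 0.40 with an adjusted p of 0.0555, in a fit that called 5.93% of all genes and none of the members. It was 0.020 without WT 10 and 0.00078 without WT 12. In the first registered block alone (Het 15 and 18 against WT 10 and 12) it was 0.45, the 1 member that passed (edgeR adjusted p = 0.0258), where 9.83% of all genes passed and genotype coincides with the run. Summed erythroid markers (7 of 8 matched, none at 0 in all cultures) had 246, 433 and 503 TPM in Het 11, 15 and 18. They had 157, 124 and 435 TPM in WT 10, 12 and 16. This is the order of cultures within each genotype that Egr2 had in CPM. It is a match picked from 7 marker lists, and the sums of the other marker lists did not have this order. In TPM, Egr2 had 18.1, 16.4 and 19.1 in Het 11, 15 and 18, so there the Het order differed. The part of the erythroid markers in the Egr2 values was not tested. RSEM's effective length of Egr2, which has 7 listed transcripts, ran from 2194 bases in Het 11 to 2712 bases in WT 12, and with lengths as an offset the log2 difference was 0.20.

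Egr3, a relative that acts in muscle spindles and lymphocytes (ENSMUSG00000033730.3, chromosome 14 from 70077203 to 70082614, plus strand), was near the limit of the depth. It had 47, 17 and 16 counts in Het 11, 15 and 18 and 22, 22 and 25 counts in WT 10, 12 and 16, or 2.17, 1.20 and 1.45 CPM against 1.55, 1.94 and 2.29 CPM. The cultures of the genotypes interleaved. The log2 difference of -0.22 (SE 0.31, interval -0.93 to 0.49, adjusted p = 0.802) was -0.53 without Het 11, -0.36 without WT 10, -0.15 without Het 18, -0.075 without WT 16 and -0.049 without Het 15.

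The EGR proteins are held in check by the corepressors NAB1 and NAB2, and NAB2 is itself an EGR target. Nab2 measured 94.1, 95.6 and 87.0 CPM in Het 11, 15 and 18 against 105.6, 94.8 and 108.9 CPM in WT 10, 12 and 16 (log2 difference -0.16, SE 0.069, adjusted p = 0.408). Nab1 differed by 0.09 (SE 0.066, adjusted p = 0.593). Egr4, the remaining family member, was under the filter on low counts and was not tested.

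Nr4a1 (ENSMUSG00000023034.6, chromosome 15 from 101254269 to 101274795, plus strand), the NR4A receptor most tied to growth factor signals, followed Egr1 in its culture order within Het. It measured 72.8, 69.8 and 38.7 CPM in Het 11, 15 and 18, against 55.0, 51.1 and 56.8 CPM in WT 10, 12 and 16. Het 11 and Het 15 lay above every WT culture and Het 18 under every one. The mean was 60.4 ± 18.9 CPM in Het and 54.3 ± 2.91 CPM in WT, so the spread was 31.3% of the mean in Het and 5.35% in WT. The log2 difference was 0.16 (SE 0.21, interval -0.31 to 0.64, adjusted p = 0.772). Without Het 18 it was 0.40 (adjusted p = 0.672), without Het 15 it was 0.056 and without Het 11 it was 0.0061.

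Nr4a2, a receptor needed by midbrain dopamine neurons (ENSMUSG00000026826.13, chromosome 2 from 57106830 to 57124003, minus strand), overlapped between the genotypes through Het 11 alone. It had 9.77, 8.07 and 7.52 CPM in Het 11, 15 and 18 and 10.4, 8.57 and 8.24 CPM in WT 10, 12 and 16. Het 15 and Het 18 lay under every WT culture, and WT 10 above every Het culture. The log2 difference of -0.10 (SE 0.16, interval -0.46 to 0.27, adjusted p = 0.828) became 0.023 without WT 10.

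Nr4a3 (ENSMUSG00000028341.9, chromosome 4 from 48045153 to 48086447, plus strand), the least abundant NR4A receptor, was the member with the largest estimate. It measured 5.71, 4.03 and 5.89 CPM in Het 11, 15 and 18, from 124, 57 and 65 counts. The WT cultures 10, 12 and 16 had 3.38, 3.71 and 3.30 CPM, from 48, 42 and 36 counts. Every Het culture lay above every WT culture, though Het 15 exceeded WT 12 by little. The difference on the log2 scale was 0.59 (SE 0.20, interval 0.12 to 1.06), a Het level of 150.4% of WT, at an unadjusted p of 0.0202 and an edgeR adjusted p of 0.340. In the order of unadjusted p it was number 867 of 14652 genes. An exact two-sided permutation test on CPM gave p = 0.1, the smallest that 3 against 3 allows. The direction cannot change within sets of cultures whose groups are apart, and the size was 0.67 within cultures 10 to 12 and 0.55 within 15 to 18. Over the fits without 1 culture the adjusted p ran from 0.199 to 0.773.

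Srf itself (ENSMUSG00000015605.5, chromosome 17 from 46548329 to 46556175, minus strand) varied least of the members across all 6 cultures, 1.26-fold between the highest and the lowest. It measured 128.8, 130.6 and 124.7 CPM in Het 11, 15 and 18 against 114.8, 107.8 and 135.9 CPM in WT 10, 12 and 16. Het cultures lay close together, above WT 10 and 12 and under WT 16. The log2 difference was 0.10 (SE 0.085, interval -0.09 to 0.30, adjusted p = 0.649), and it was 0.21 without WT 16 (adjusted p = 0.0531) and 0.039 without WT 12. In terms of level the Het mean was 107.2% of WT, with an interval of 93.6% to 122.8%.

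SRF's partners were examined as a list of 6 genes (ternary complex factors Elk1, Elk3 and Elk4 and the coactivators Mrtfa, Mrtfb and Myocd). None was called, and the median log2 difference was 0.07. Of the 6, 4 had a higher and 2 a lower estimate in Het, beside 49.6% and 50.4% of all genes. Mrtfb, an actin-responsive coactivator, differed by 0.20 (SE 0.090, adjusted p = 0.423) and Mrtfa by 0.11 (SE 0.067). Myocd, the smooth-muscle coactivator, was the list's 1 gene of 6 whose groups were apart, beside 17.7% of all genes, with 4.15, 5.02 and 6.07 CPM in Het 11, 15 and 18 and 4.02, 3.98 and 2.84 CPM in WT 10, 12 and 16 (log2 difference 0.47, SE 0.22, adjusted p = 0.441). Elk4 differed by -0.09 (SE 0.14).

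Cytoskeletal targets of MRTF and SRF were taken as a list of 16 genes. Of these 15 had a higher estimate in Het, beside 49.6% of all genes, with a median log2 difference of 0.23. By edgeR 10 of 16 were higher at an unadjusted p under 0.05, beside 5.56% of all genes, and none was called. The list's mean deviation from the WT mean was 0.23, 0.24 and 0.26 in Het 11, 15 and 18 and -0.09, -0.11 and 0.20 in WT 10, 12 and 16, so WT 16 stood near the Het cultures. Fibroblast markers had -0.33, -0.00055 and -0.20 in Het 11, 15 and 18 and 0.14, 0.07 and -0.20 in WT 10, 12 and 16, and their part in these values was not tested. Groups did not overlap, with Het higher, for 7 of the 16 beside 7.75% of all genes. Zyx, a focal adhesion protein gene, measured 710.5, 751 and 702 CPM in Het 11, 15 and 18 and 505, 458 and 651 CPM in WT 10, 12 and 16 (0.42, SE 0.12, adjusted p = 0.313). Cald1 (0.28, SE 0.062), Acta2 (0.24, SE 0.066) and Cnn1 (0.35, SE 0.10) had the same adjusted p. Het 18 was the lowest culture for none of these 16 genes, while it was the lowest for 5 of the 10 immediate-early members.

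Ier2 (ENSMUSG00000053560.4, chromosome 8 from 84661331 to 84662852, minus strand) also had Het 18 as its lowest culture. Its CPM was 115.7, 114.7 and 88.2 in Het 11, 15 and 18 and 111.9, 103.6 and 130.5 in WT 10, 12 and 16. The highest value was in WT 16, and the groups overlapped (log2 difference -0.12, SE 0.12, interval -0.39 to 0.16, adjusted p = 0.720). Without Het 18 the difference was 0.0039.

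Zfp36 (ENSMUSG00000044786.6, chromosome 7 from 28376784 to 28380253, minus strand) measured 108.9, 111.1 and 73.1 CPM in Het 11, 15 and 18, against 100.6, 75.2 and 98.5 CPM in WT 10, 12 and 16. Each group had 1 low culture, Het 18 and WT 12, and the other 4 lay between 98.5 and 111.1 CPM. The log2 difference was 0.10 (SE 0.17, interval -0.29 to 0.49, adjusted p = 0.838), and -0.016 without WT 12.

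Transcripts with AU-rich elements that ZFP36 is known to bind were taken as a list of 12, of which 10 were tested and Csf2 and Il1b were under the filter. Estimates were higher in Het for 8 and lower for 2, beside 49.6% higher and 50.4% lower over all genes, with a median log2 difference of 0.41. None was called, beside 0.00683% of all genes, and none had groups apart, beside 17.7% of all genes. Ptgs2, the inducible cyclooxygenase, had 255, 279.7 and 219 CPM in Het 11, 15 and 18 and 94.0, 90.9 and 254 CPM in WT 10, 12 and 16. WT 16 lay inside the Het range there (0.78, SE 0.36, adjusted p = 0.433), as it did for the cytokine gene Lif (0.42, SE 0.23), and above it for the urokinase receptor gene Plaur (0.46, SE 0.26). Vegfa differed by -0.19 (SE 0.092).

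Btg2 (ENSMUSG00000020423.6, chromosome 1 from 134075170 to 134079120, minus strand), a p53-responsive as well as an immediate-early gene, measured 118.5, 118.5 and 98.3 CPM in Het 11, 15 and 18. The WT cultures 10, 12 and 16 had 78.9, 91.6 and 112.1 CPM. Het 18 lay under WT 16, so the groups overlapped in that pair alone. Its log2 difference was 0.25 (SE 0.13, interval -0.05 to 0.55, adjusted p = 0.468), and it was 0.40 without WT 16 (adjusted p = 0.0574) and 0.14 without WT 10 (adjusted p = 0.817).

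Relatives of BTG2, ZFP36 and IER2 went both ways, with 5 of 9 higher and 4 lower in Het, beside 49.6% and 50.4% of all genes. Their median log2 difference was 0.03 and none was called. Groups did not overlap, with Het lower, for 3 of the 9 beside 9.97% of all genes. These were Btg1, an antiproliferative relative of BTG2 (107.5, 95.3 and 80.9 CPM in Het 11, 15 and 18, 117.0, 114.1 and 116.9 CPM in WT 10, 12 and 16), Tob1 and Zfp36l1. Btg1 differed by -0.29 (SE 0.095, adjusted p = 0.325), Tob1, of the same family, by -0.27 (SE 0.12) and the RNA-decay gene Zfp36l1 by -0.16 (SE 0.062). Btg3 differed by 0.23 (SE 0.10). Het 18 had the lowest value of all 6 cultures for Btg1, Tob1 and Zfp36l1, as it had for Zfp36 but not for Btg2.

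Het 18 and WT 16 held most of the extreme values among the 10 members. Het 18 was the lowest of the 6 for 5 members (Egr1, Nr4a1, Nr4a2, Ier2 and Zfp36), where it was the lowest for 20.2% of all genes, and it was the highest for Nr4a3. WT 16 was the highest for 4 members (Egr2, Egr3, Ier2 and Srf), where it was the highest for 20.0% of all genes. Het 11 was the lowest for none. Averaged over the 10 members, log2 CPM stood 0.23, 0.08 and -0.13 from the WT mean in Het 11, 15 and 18, and -0.04, -0.10 and 0.14 from it in WT 10, 12 and 16. Epithelial markers (7 of 7 tested, none at 0 in all cultures) were highest in Het 18 by their sum. The sums were 132, 202 and 261 TPM in Het 11, 15 and 18 and 123, 160.4 and 201.8 TPM in WT 10, 12 and 16. Of these markers Krt19, Krt5 and Epcam were highest in other cultures. The sums of the erythroid markers (503 TPM) and of the neural and Schwann markers (307 TPM) were also highest in Het 18. Heat-shock genes, which also respond to cell dissociation, had mean deviations of 0.17, 0.20 and 0.10 in Het 11, 15 and 18. In WT 10, 12 and 16 they had -0.08, -0.09 and 0.17. By this mean Het 18 was the lowest Het culture. By summed TPM it was Het 11, with 4172, 4397 and 4335 TPM in Het 11, 15 and 18. The part of these in the pattern was not tested.

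**Figure D3:**
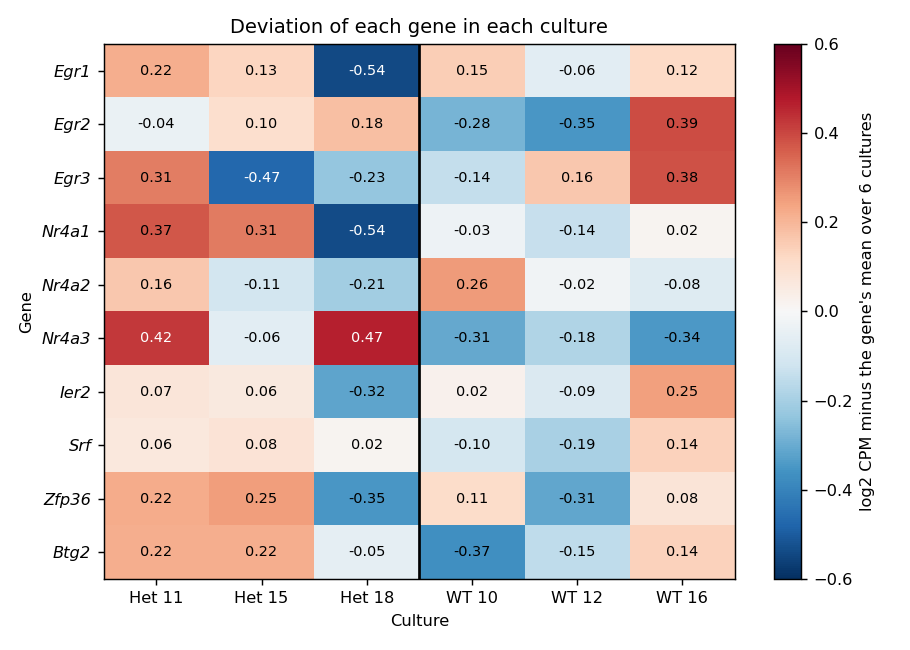
Log2 CPM of each gene in each culture minus the gene's mean over the 6 cultures, with Het left of WT. The column of Het 18 holds the lowest values of Egr1 and Nr4a1, both -0.54, beside 0.47 for Nr4a3.

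The direction of the members differed between the runs of culture numbers. Within cultures 10 to 12 (Het 11 against WT 10 and 12) all 10 members were higher in Het, by a median of 0.28 on the log2 scale, where 49.8% of all genes were higher. Within cultures 15 to 18 (Het 15 and 18 against WT 16) 9 of 10 were lower, by a median of -0.13, where 48.1% of all genes were higher. Nr4a3 was the exception. Nr4a1 differed by 0.46 and -0.13 within these runs, Btg2 by 0.48 and -0.06, Zfp36 by 0.32 and -0.13, and Egr1 by 0.17 and -0.33. Each run compares 1 culture of a genotype with 2 of the other, so single cultures weigh heavily, and a difference between the runs was not tested. Het 18 lay under WT 16 for each of the 9 members that were lower within cultures 15 to 18. Het 15 lay above WT 16 for Egr1, Nr4a1, Zfp36 and Btg2, and under it for Egr2, Egr3, Nr4a2, Ier2 and Srf. In the first registered block 5 of 10 were higher and in the later pair (Het 11 against WT 16) 6 of 10.

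**Figure D4:**
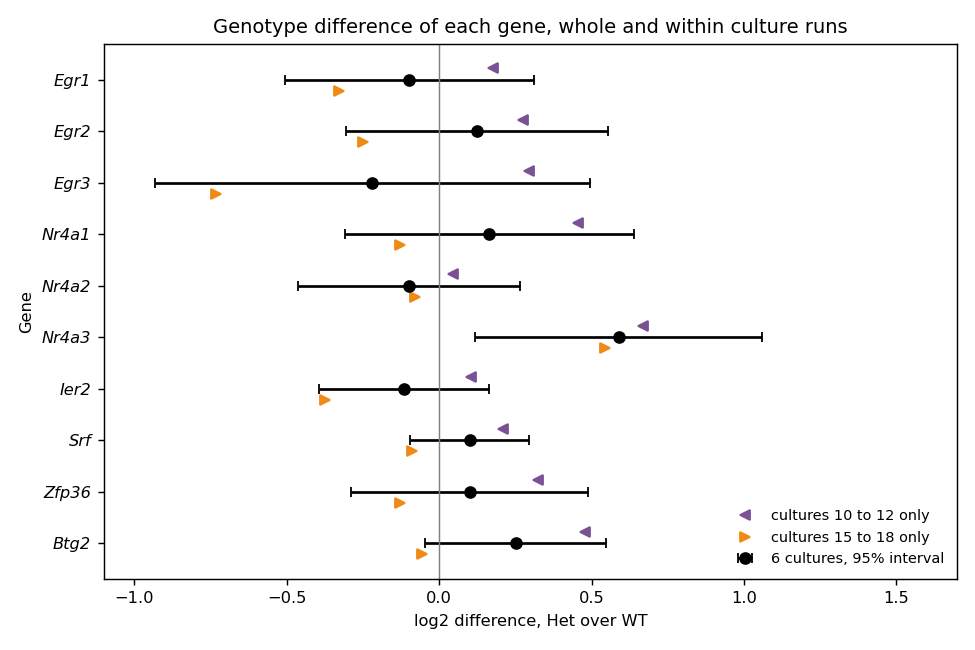
Log2 difference, Het over WT, of each gene from edgeR over 6 cultures with its 95% interval, and the differences of log2 CPM within each run of culture numbers. The interval of Nr4a3 alone lies above 0, and the run values of the other 9 genes lie on opposite sides of 0.

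The wider set of serum-response immediate-early genes was a list of 30 that holds Fos, Jun, Dusp, Klf and Myc genes among others. It had 22 higher and 8 lower estimates in Het, beside 49.6% higher and 50.4% lower over all genes. The median log2 difference was 0.20 and none was called. At an unadjusted p under 0.05 there were 5 higher and 1 lower of 30, beside 5.56% higher and 6.65% lower over all genes. The list's mean deviation was 0.26, 0.24 and -0.00 in Het 11, 15 and 18 and -0.04, -0.24 and 0.28 in WT 10, 12 and 16. Het 18 was under the other Het cultures and WT 16 above the other WT cultures here as well. WT 12 was the lowest culture for 19 of the 30 and Het 18 for 7. Id3, an inhibitor of basic helix-loop-helix factors, had 215.6, 178.8 and 172.0 CPM in Het 11, 15 and 18 against 234, 232 and 217 CPM in WT 10, 12 and 16 (-0.27, SE 0.089, adjusted p = 0.333), the list's 1 gene of 30 with groups apart, beside 17.7% of all genes. The pseudokinase gene Trib1 (0.32, SE 0.12), the NF-kB regulator Nfkbiz (0.32, SE 0.13) and Csrnp1 (0.34, SE 0.14) were higher in Het by estimate, with WT 16 inside the Het range for each. Without WT 16 the list's median was 0.41.

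**Figure D5:**
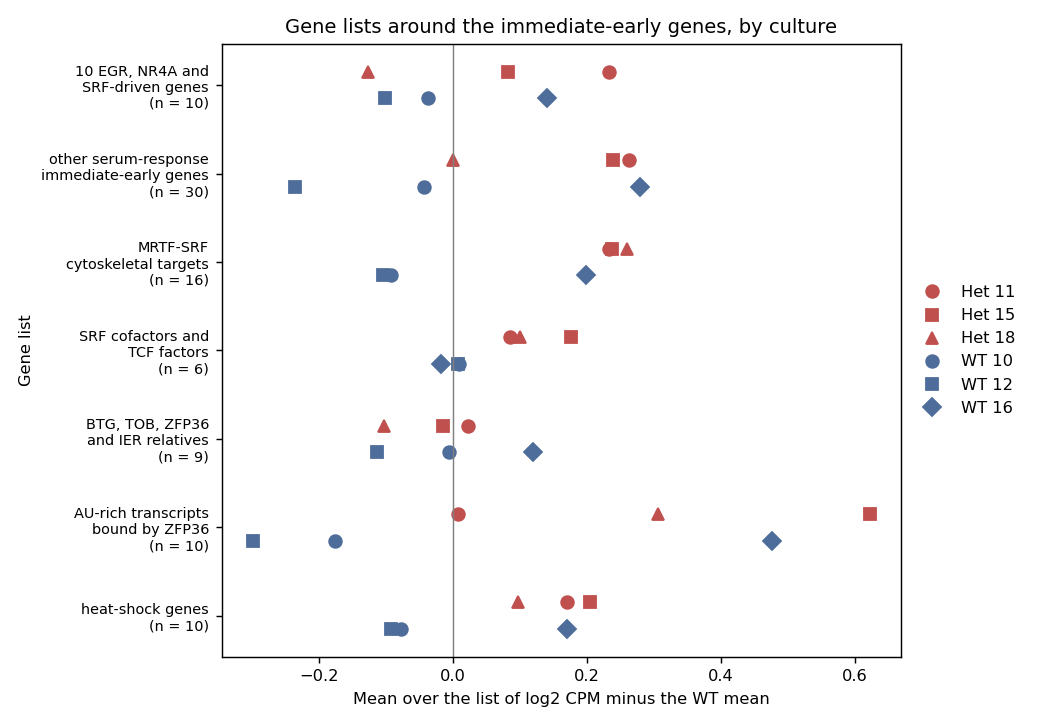
Mean over each gene list of log2 CPM minus the WT mean, 1 point per culture, with Het above WT in each row. WT 16 lies right of the other WT cultures in the lists drawn other than the SRF cofactors. Het 18 is the leftmost Het culture for the 10 members, the other immediate-early genes, the BTG, TOB, ZFP36 and IER relatives and the heat-shock genes.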

How the data were processed

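Per the labels' protocols, total RNA went into TruSeq library preparation (Illumina). The authors deposited 1 RSEM gene table per library, per the file headers, and the submitters' processing notes list RSEM 1.3.1, DESeq2 and mm10. No label or header names the aligner, annotation release or strand setting. The deposited expected counts are estimated reads per gene, of which 7.53% to 8.80% were not whole, and were rounded. The deposited TPM values, scaled for length and total, served for levels and for limma alternatives at pseudocounts of 1 and 0.1. The deposited FPKM values were not tested. Symbols were matched by Ensembl number, for 51633 of 51826 genes, and coordinates come from GENCODE M21.

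Genes passing filterByExpr (14652) were fitted with edgeR 4.0.16 (R 4.3.3), with TMM factors, the quasi-likelihood test, no covariates and Benjamini-Hochberg adjustment over all of them. CPM is scaled by TMM, log2 CPM has a prior count of 2, and SE and 95% intervals are those of the fitted difference. Alternatives used DESeq2 1.42.0, limma 3.58.1 and other settings. All 10 members are named, and up to 4 genes of each list by unadjusted p. The members and lists were chosen with earlier results of these data known. On simulated counts for 14652 genes, 3 against 3, edgeR recovered 56.7% of genes changed 1.5-fold, 70.1% at 2-fold and 98.5% at 4-fold, with 10 false calls. The simulated counts varied independently from gene to gene and hold no pattern shared within a culture. These shares therefore need not hold for the real cultures. The biological coefficient of variation was 11.3%. A count of 3 equals 0.138 CPM in the deepest and 0.275 CPM in the shallowest library. Reads of genes that overlap others could not be assigned to a strand here, so such values are uncertain. Ahsp of the erythroid list had no match and was not analysed here.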

Additional observations from a re-analysis of the deposited data

How the results depend on the processing

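No member passed in edgeR, or in any alternative that gave it an adjusted p, with the exception of Egr2 in the first registered block alone, where the count was 1. Leaving out 1 culture gave 0 members in each fit. The count of all genes called was 117 in DESeq2, 32 with no low-count filter, 1450 in the first registered block alone and 0 with the length offset or with limma at either pseudocount, and it ran from 0 to 896 without 1 culture, the 896 being without WT 16. At an unadjusted p under 0.05 the fits with 0 calls had 909 to 1862 genes without 1 culture, 1626 with the offset, and 1693 and 1681 with limma at pseudocounts of 1 and 0.1. Lztr1 differed by -0.91 with the length offset (adjusted p = 0.0852), -0.92 and -0.94 in limma at pseudocounts of 1 and 0.1 (0.260 and 0.267), and -1.06 to -0.97 without 1 culture, where its adjusted p was over 0.05 in 5 of 6 fits.

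Members with groups apart numbered 1 to 4 without 1 culture: 3 without Het 11 (Egr3, Nr4a2 and Nr4a3, against 31.6% of all genes), 4 without Het 18 (Nr4a1, Nr4a3, Zfp36 and Btg2, against 24.0%) and 4 without WT 16 (Egr2, Nr4a3, Srf and Btg2, against 43.5%). Over these fits the log2 difference turned for Egr1 (-0.24 to 0.11, positive without Het 18), Ier2 (-0.18 to 0.0039, positive without Het 18), Nr4a2 (-0.22 to 0.023, positive without WT 10) and Zfp36 (-0.016 to 0.27, negative without WT 12). The other alternatives tried turned no member's direction. The median over the members was 0.08 to 0.11 under the other scalings and the length offset, and -0.0075 to 0.18 without 1 culture (negative without WT 12). No paired analysis was possible because the genotypes share no culture number to match single cultures. Each run holds both genotypes, and with the run as a term edgeR called 1 gene and 0 members, with log2 differences of 0.64 for Nr4a3 (adjusted p = 0.365), 0.014 for Egr2, 0.063 for Srf and -0.017 for Nr4a2. Counts were low for Egr3 (16 to 47) and Nr4a3 (36 to 124).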

Other observations

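Genes whose pattern over the 6 cultures was nearest to that of Egr1 were 2310039H08Rik, Pgap3, Gm10138, Nog and 4930524J08Rik. Likeness was the root mean square difference of log2 CPM centred on each gene's mean over 6 cultures, and it was 0.076 for the first and 0.090 for the fifth of these, where the median over 13674 candidates was 0.287. The members Nr4a1 (0.133), Ier2 (0.134) and Zfp36 (0.139) were the nearest to Egr1 among the 10, ahead of Nr4a2 (0.193) and Srf (0.264), while Nr4a3 (0.506) and Egr2 (0.392) were the farthest. For the mean profile of the 10 members the nearest genes were Creb5, Colca2, Inpp1, Rhod and Rhobtb3, at 0.039 to 0.047, where the median was 0.185. With 6 cultures and this many candidates close matches are to be found for any profile, and nothing is read from them on shared function or control.

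Among the heat-shock genes, 9 of 10 had a higher estimate in Het, beside 49.6% of all genes. Their median log2 difference was 0.17 and none was called, beside 0.00683% of all genes. Hsp90aa1, the inducible HSP90 gene, measured 1001, 1101 and 1070.1 CPM in Het 11, 15 and 18. In WT 10, 12 and 16 it had 775, 751 and 943 CPM (log2 difference 0.36, SE 0.093, edgeR adjusted p = 0.313). It was the list's 1 gene of 10 with groups apart, beside 17.7% of all genes. Hsph1 (0.20, SE 0.078), Hspd1 (0.23, SE 0.11) and Hspa8 (0.16, SE 0.080) overlapped between the groups. Macrophage and blood markers summed to 186.5, 337 and 307 TPM in Het 11, 15 and 18 and 215, 218 and 298 TPM in WT 10, 12 and 16.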
